A study of Solanum lycopersicum with 6 samples.

Results

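The genes described here encode the plastid enzymes that lead to lycopene, the red carotenoid of ripe tomato. They are 10 loci of the 35768 gene models in the deposited table, chosen by identifier as DXS1 (Solyc01g067890), GGPPS2 (Solyc04g079960), GGPPS3 (Solyc02g085700), PSY1 (Solyc03g031860), PSY2 (Solyc02g081330), PSY3 (Solyc01g005940), PDS (Solyc03g123760), ZISO (Solyc12g098710), ZDS (Solyc01g097810) and CRTISO (Solyc10g081650). The rule that chose them uses no measured value, though the members were chosen with earlier results of these data known. The table itself holds no gene names. Of the 10 names, 8 are also held by the RefSeq gene table of assembly SLM_r2.1, and all 8 sit on the expected chromosome there, at a gene rank that differed by less than 5% of the chromosome. For GGPPS3 and PSY3 the name rests on the selection alone.

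RNA was sequenced from pericarp, the fruit wall, at the shoulder of tomato fruit (Solanum lycopersicum), the end nearest the stalk. The cultivar was Ailsa Craig and the fruit were harvested at 30 DPA, or days post anthesis. The slgols2 group is labelled a knock-out and carries a mutation made by CRISPR-Cas9 editing, where GolS usually stands for galactinol synthase, an enzyme of raffinose sugar synthesis. It had 3 libraries, and the wild type (WT) group of the same cultivar and stage also had 3. All plants were grown in a greenhouse with 16 h of light at 25 °C and 8 h of dark at 18 °C. The labels do not say how many edited lines or plants stand behind the libraries, so a p-value here reflects library-to-library spread that may be technical only.

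In plastids, DXS starts the MEP pathway, which supplies isoprenoid building blocks, and GGPP synthases (GGPPS) join them into geranylgeranyl diphosphate. Phytoene synthase (PSY) condenses this into colourless phytoene, the first committed carotenoid. Phytoene desaturase (PDS), the isomerase ZISO, zeta-carotene desaturase (ZDS) and the isomerase CRTISO then turn phytoene into all-trans lycopene. Carotenoids serve photosynthesis in green fruit, and lycopene accumulates when fruit ripen.

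The values were FPKM (fragments scaled to gene length and library depth), as the authors deposited them. Whole fragment numbers were recovered from the steps between low values, and the depth ran from 16054248 to 17941974 fragments in slgols2 libraries and from 15593387 to 17448121 in WT libraries. Replicate 3 of slgols2 stood apart. Correlated over tested genes, which are no independent replicates, its log2(FPKM + 1) values stood at 0.849 and 0.869 with the other slgols2 libraries and at 0.878 to 0.903 with WT libraries, while slgols2 replicates 1 and 2 stood at 0.957 with each other. Changes are therefore also given without that library where it moves them by more than 1.5 times. A late ripening marker, chosen after its values were seen, was near absent. The polygalacturonase locus PG2 (Solyc10g080210), a cell wall enzyme gene of ripe fruit, had 0 fragments in each slgols2 library and in 2 WT libraries and 1 fragment in WT replicate 3. Taken over 13 recalled ripening loci, PG2 among them, summed FPKM was uneven within both genotypes. By replicate number the sums were 205, 330 and 520 FPKM for slgols2, but 518, 485 and 204 FPKM for WT. ACO1 (Solyc07g049530) alone stood at 25.1, 123 and 179 FPKM in slgols2, against 176, 251 and 7.18 FPKM in WT. CNR (Solyc02g077920) had 69.9, 70.3 and 193 FPKM in slgols2, against 228, 108 and 99.5 FPKM in WT. Not all loci varied so. FUL2 (Solyc03g114830) had 23.0, 23.4 and 31.2 FPKM in slgols2, against 24.0, 26.7 and 22.9 FPKM in WT. These loci are named after their values were seen. Whether all fruit had reached the same ripening stage was not tested. The level of the edited gene was not used here.

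Most of the pathway was present in both genotypes. The order of levels, by the mean FPKM over all 6 libraries, was DXS1 (65.8), GGPPS3 (45.7), PSY1 (28.1), ZDS (18.6), PDS (17.3), PSY2 (11.3), ZISO (8.76), CRTISO (8.31) and GGPPS2 (2.87), with PSY3 last, near 0. Neighbours in this order often overlapped in their ranges over the libraries. GGPPS3 lay above PSY1, CRTISO above GGPPS2, and GGPPS2 above PSY3 with no overlap, whereas ZDS exceeded PDS, and ZISO exceeded CRTISO, in 3 of the 6 libraries. The gene lengths behind the values bear on this order. The recovered lengths of the 8 members matched in the reference were 0.844 to 1.23 times the RefSeq gene span, introns included, so genes with long introns read low beside the short GGPPS2 and GGPPS3 models, at 1091 and 1082 bases.

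**Figure D1:**
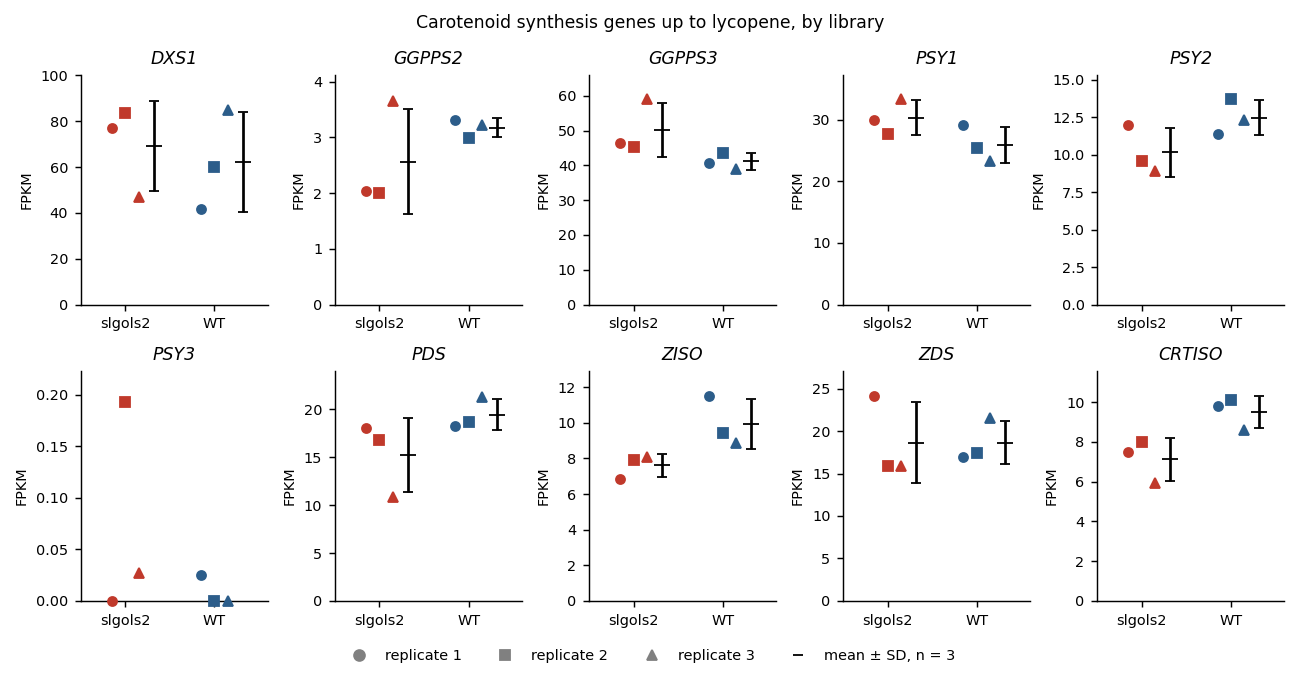
FPKM of each of the 10 genes (vertical axes, each starting at 0) in slgols2 and WT libraries. Symbols mark the replicates, and the bar beside them the mean ± SD (n = 3), left out for PSY3, which is listed at 0 in 3 libraries. GGPPS3 is higher in all 3 slgols2 libraries, PDS, ZISO and CRTISO are lower in all 3, and the other genes overlap.

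None of the members passed the test for a difference between slgols2 and WT. Of the 10, 9 reached the minimum mean level of 1 FPKM and were tested, and PSY3 did not. The test was limma on log2(FPKM + 1) over 15695 genes, with Benjamini-Hochberg adjustment at 0.05, and 0 of the 9 passed (adjusted p between 0.438 and 0.986), where 0.229% of all tested genes did. At an unadjusted p of 0.05 the count was also 0, where 12.0% of all tested genes passed. On recovered fragments, limma-voom likewise gave 0 members after adjustment, where 0.00637% of all tested genes passed, and 0 unadjusted, where 11.8% did. Estimated changes were positive for 3 members and negative for 6, with a median log2 change of -0.26, against 0.0013 over all genes tested. No estimate exceeded 0.37 in size. The 95% intervals reached as far as -0.91 for PDS and 1.00 for DXS1, so a missed threshold does not show that levels were equal.

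Without a test, the values of some members nevertheless fell apart by genotype. Groups did not overlap for 4 of the 9 tested members, 1 higher and 3 lower in slgols2, which is 44.4%, against 19.2% of all tested genes (9.60% higher and 9.59% lower). With median-ratio scaling or quantile normalization of the libraries the count was 3, and PDS was the member that overlapped under either. No test was made of that share, and the members were chosen with earlier results of these data known.

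**Figure D2:**
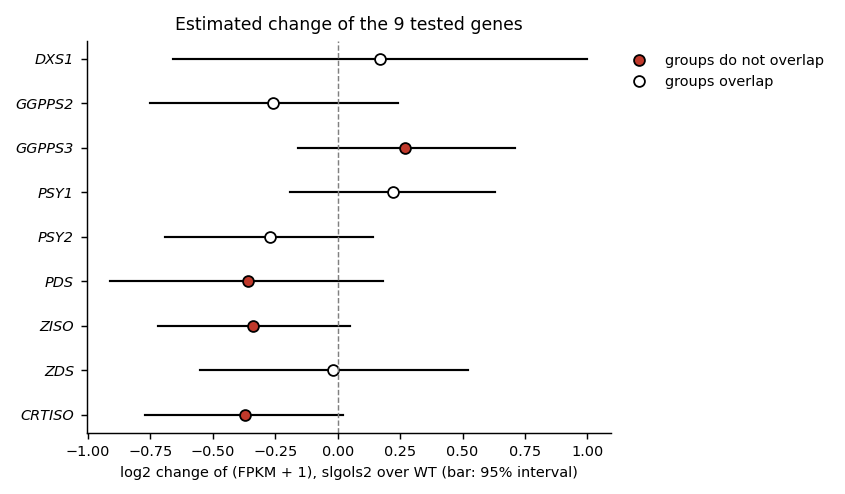
Log2 change of (FPKM + 1), slgols2 over WT (horizontal axis), with its 95% interval from limma, for the 9 tested genes in pathway order from top to bottom. Filled points mark genes whose groups do not overlap. Every interval spans 0, the nearest to excluding it being that of CRTISO, from -0.77 to 0.02.

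DXS1, the first enzyme of the MEP pathway, was the most abundant and the most variable member. It stood at 77.0, 83.8 and 47.0 FPKM in slgols2 replicates 1, 2 and 3, against 41.8, 60.0 and 85.0 FPKM in WT replicates 1, 2 and 3. Both groups therefore held a library near the top and one near the bottom of the range, and they overlapped almost completely. The estimate for DXS1 was 0.17 ± 0.34 as a log2 change (SE, limma adjusted p = 0.88), with a 95% interval from -0.66 to 1.00. The estimate depended on single libraries, at 0.42 when slgols2 replicate 3 or WT replicate 3 was left out, 0.07 when slgols2 replicate 1 was, 0.01 when slgols2 replicate 2 was and -0.09 when WT replicate 1 was. With sample quality weights, which count each library by its fit to its group, the estimate for DXS1 was 0.53 (limma adjusted p = 0.167). The SD within groups was 0.474 on the log2 scale, higher than in 76.2% of tested genes, although each value rested on 3830 to 7256 fragments.

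The GGPP synthases supply the precursor that phytoene synthase consumes. GGPPS3 stood at 46.4, 45.2 and 59.1 FPKM in slgols2 replicates 1, 2 and 3, against 40.6, 43.7 and 39.1 FPKM in WT replicates 1, 2 and 3. All 3 slgols2 values lay above the highest WT value, replicate 2 only by a small step. The estimate for GGPPS3 was 0.27 ± 0.18 on the log2 scale (SE, limma adjusted p = 0.596, 95% interval -0.16 to 0.71), and 0.15 without slgols2 replicate 3.

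GGPPS2 was much less abundant. It stood at 2.04, 2.00 and 3.65 FPKM in slgols2 replicates 1, 2 and 3, against 3.31, 2.98 and 3.23 FPKM in WT replicates 1, 2 and 3. Replicates 1 and 2 of slgols2 were the lowest of the 6 libraries and replicate 3 the highest. These values rest on few fragments, 40, 35 and 65 in slgols2, against 63, 56 and 55 in WT, and the exact 95% Poisson interval of the lowest, 24.4 to 48.7, overlaps that of the WT library with 55, from 41.4 to 71.6. Intervals of this kind cover counting error only. For GGPPS2 the log2 change was -0.26 ± 0.20 (SE, limma adjusted p = 0.656, 95% interval -0.75 to 0.24), and -0.47 without slgols2 replicate 3. With limma's sample quality weights alone, GGPPS2 was the one member to pass, at -0.45 (adjusted p = 0.0475), in a fit that called 2028 genes in all. The same weights moved the estimates of GGPPS3 to 0.14, PSY1 to 0.10, PDS to -0.18 and ZDS to -0.09. Within each library the ratio of GGPPS3 to GGPPS2 was 22.7, 22.6 and 16.2 in slgols2, against 12.3, 14.7 and 12.1 in WT, and the groups did not overlap. This ratio was chosen after its values were seen and has no test.

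PSY1, the phytoene synthase of ripening fruit, whose loss gives yellow-fleshed tomatoes, was the main phytoene synthase transcript in every library. It stood at 29.9, 27.7 and 33.4 FPKM in slgols2 replicates 1, 2 and 3, against 29.1, 25.4 and 23.3 FPKM in WT replicates 1, 2 and 3. The groups overlapped, since WT replicate 1 lay above slgols2 replicate 2. PSY1 had an estimated log2 change of 0.22 ± 0.17 (SE, limma adjusted p = 0.651), and the 95% interval, -0.19 to 0.63, corresponds to 0.875-fold to 1.55-fold on this scale. PSY1 was among the steadier genes, with a within-group SD of 0.143 on the log2 scale, lower than in most tested genes, where the median was 0.283.

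PSY2, the paralogue better known from leaves and other green tissue, stood at 12.0, 9.57 and 8.91 FPKM in slgols2 replicates 1, 2 and 3, against 11.4, 13.7 and 12.3 FPKM in WT replicates 1, 2 and 3. Replicates 2 and 3 of slgols2 were the lowest, and replicate 1 lay inside the WT range. For PSY2 the log2 change was -0.27 ± 0.17 (SE, limma adjusted p = 0.575, 95% interval -0.69 to 0.14). PSY1 made up 71.3%, 74.0% and 78.9% of the FPKM sum of PSY1, PSY2 and PSY3 in slgols2 replicates 1, 2 and 3, compared with 71.9%, 65.0% and 65.4% in WT replicates 1, 2 and 3. The shares averaged 74.7% ± 3.86 in slgols2 and 67.4% ± 3.86 in WT (SD, n = 3 each) and overlapped (two-sided exact permutation p = 0.2, where 3 against 3 cannot go below 0.10). As a share of both paralogues the balance does not depend on library scaling.

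PSY3, a phytoene synthase known mainly from roots, was close to undetected. It had 0, 7 and 1 fragments in slgols2 replicates 1, 2 and 3, against 1, 0 and 0 fragments in WT replicates 1, 2 and 3. These correspond to 0, 0.193 and 0.0271 FPKM in slgols2, against 0.0254, 0 and 0 FPKM in WT. Only slgols2 replicate 2 exceeded the limit that a count of 0 allows, 3 fragments, or 0.0741 to 0.0852 FPKM across libraries. That library also held the highest summed level of the 12 recalled seed storage and oil body loci, at 107 FPKM, where the other slgols2 libraries had 1.66 and 3.79 FPKM and WT libraries 12.4, 16.0 and 62.3 FPKM. The part of seed tissue in the PSY3 count was not tested.

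**Figure D3:**
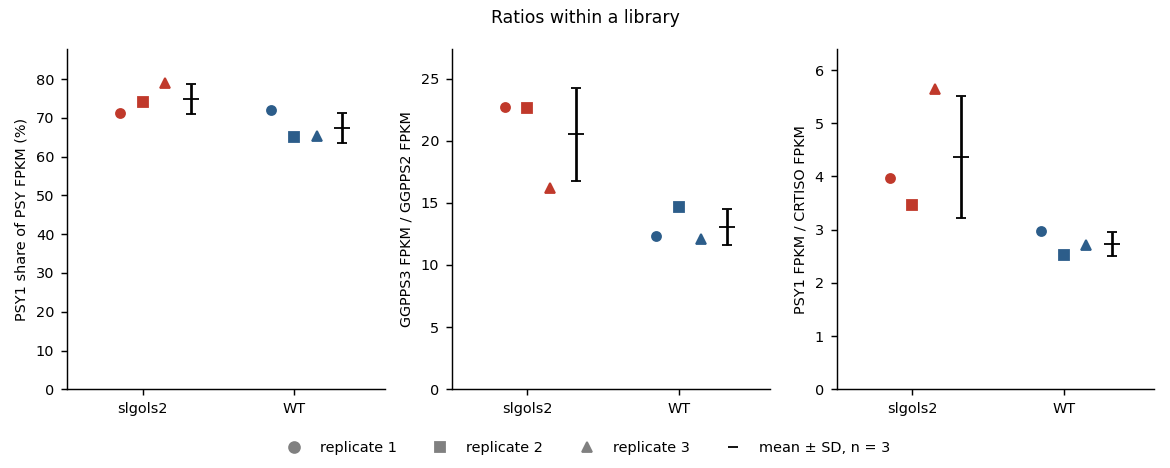
Ratios taken within a library, for slgols2 and WT (vertical axes start at 0, symbols mark the replicates, bars are mean ± SD, n = 3). The PSY1 share of phytoene synthase FPKM overlaps between groups, while the ratios of GGPPS3 to GGPPS2 and of PSY1 to CRTISO do not. Both ratios were chosen after their values were seen and have no test. GGPPS3 and CRTISO also do not overlap between groups by themselves.

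The desaturases and isomerases that follow PSY included all 3 of the members whose slgols2 values lay wholly below WT. PDS, the first desaturase and the target of bleaching herbicides, stood at 18.0, 16.8 and 10.8 FPKM in slgols2 replicates 1, 2 and 3, against 18.3, 18.7 and 21.3 FPKM in WT replicates 1, 2 and 3. The gap between groups was narrow, and slgols2 replicate 3 was far below the rest. PDS had an estimated log2 change of -0.36 ± 0.23 (SE, limma adjusted p = 0.575, 95% interval -0.91 to 0.18), and -0.15 without slgols2 replicate 3.

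ZISO, which isomerises the product of PDS, stood at 6.85, 7.92 and 8.05 FPKM in slgols2 replicates 1, 2 and 3, against 11.5, 9.44 and 8.84 FPKM in WT replicates 1, 2 and 3. Here slgols2 replicate 3 was the highest of its group, and the separation did not come from it. The estimate for ZISO was -0.34 ± 0.16 on the log2 scale (SE, limma adjusted p = 0.468, 95% interval -0.72 to 0.05), and -0.38 without slgols2 replicate 3.

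ZDS, the second desaturase, overlapped between the groups. It stood at 24.1, 15.9 and 15.9 FPKM in slgols2 replicates 1, 2 and 3, against 17.0, 17.4 and 21.5 FPKM in WT replicates 1, 2 and 3. One slgols2 library was the highest of all and the other two were the lowest. For ZDS the log2 change was -0.02 ± 0.22 (SE, limma adjusted p = 0.986, 95% interval -0.55 to 0.52), and its sign turned with quantile normalization, at 0.01, and without slgols2 replicate 2 or 3 or WT replicate 3, at 0.08 each.

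CRTISO, the last isomerase, whose loss gives the orange fruit of the tangerine mutant, had the lowest p of the members. It stood at 7.49, 7.99 and 5.92 FPKM in slgols2 replicates 1, 2 and 3, against 9.80, 10.1 and 8.58 FPKM in WT replicates 1, 2 and 3. Every slgols2 library was below every WT library. CRTISO averaged 7.13 ± 1.08 FPKM in slgols2 and 9.48 ± 0.793 FPKM in WT (SD, n = 3 each). CRTISO had an estimated log2 change of -0.37 ± 0.16 (SE, unadjusted p = 0.0604, limma adjusted p = 0.438), and -0.26 without slgols2 replicate 3. Lower levels in bulk tissue do not tell fewer cells of a type from less RNA per cell. The summed FPKM of 6 recalled epidermis and cuticle loci, markers of the outer fruit layer, was also below WT in every slgols2 library, at 112, 164 and 341 FPKM in slgols2 libraries, against 403, 461 and 398 FPKM in WT libraries. The most abundant of them had 37.8, 66.4 and 205 FPKM in slgols2, against 241, 295 and 224 FPKM in WT. Of the 6, 5 were tested and 1 is listed at 0. Groups did not overlap for 4, all lower, where 9.59% of all tested genes were, and another was highest in slgols2 replicate 3, at 13.7 FPKM. The part of the outer layer in the levels of ZISO, PDS and CRTISO was not tested.

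**Figure D4:**
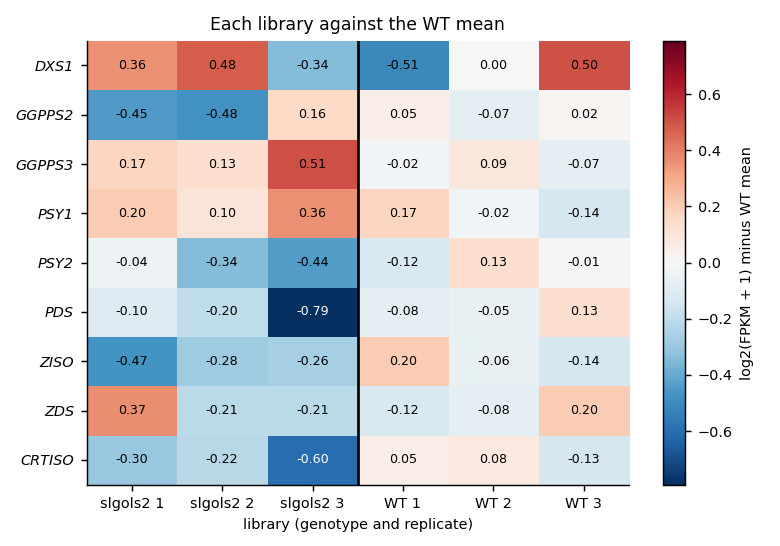
Log2(FPKM + 1) of each tested gene in each library minus the WT mean of that gene (colour and printed value). The lowest value is PDS in slgols2 replicate 3, at -0.79, and that library is positive for GGPPS2, GGPPS3 and PSY1 and negative for the other 6 genes.

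The members did not move as one unit across libraries. Replicate 3 of slgols2 was the highest of the 6 libraries for 3 members (GGPPS2, GGPPS3 and PSY1) and the lowest for 4 (PSY2, PDS, ZDS and CRTISO). Its log2(FPKM + 1) differed from the WT mean by 0.51 for GGPPS3 and 0.36 for PSY1, and by -0.79 for PDS and -0.60 for CRTISO. In slgols2 replicates 1 and 2 the lowest values against the WT mean were those of ZISO, at -0.47, and GGPPS2, at -0.48. The summed FPKM of PDS, ZISO, ZDS and CRTISO was 56.5, 48.6 and 40.6 FPKM in slgols2 replicates 1, 2 and 3, against 56.5, 55.6 and 60.2 FPKM in WT replicates 1, 2 and 3, and the groups overlapped. The ratio of PSY1 to CRTISO in a library was 3.98, 3.47 and 5.65 in slgols2, against 2.97, 2.52 and 2.72 in WT, which did not overlap. It was chosen after its values were seen and has no test.

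Among gene models with a mean of at least 10 FPKM, the profile of PSY1 over the 6 libraries, centred on its mean, was most like that of Solyc09g055870.2 and Solyc11g022540.2. Their mean absolute difference from it was 0.043 and 0.050 on the log2 scale. The sources used here give neither a name. Of 5254 gene models compared, GGPPS3 ranked 47th by this measure (0.0888), whereas PSY2 ranked 2103 (0.261), ZDS 2213 (0.267), PDS 2512 (0.291) and DXS1 3808 (0.439). ZISO, CRTISO, GGPPS2 and PSY3 lay below 10 FPKM and were not ranked. The measure is not scaled by spread, so steady genes rank near the steady PSY1, and a rank does not show shared regulation.

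Loci recalled for the rest of the pathway were also without a call. Of 37 loci for other precursor steps, steps after lycopene, accessory proteins and ripening, 28 were tested and 0 passed in limma over all genes, where 0.229% of all tested genes did. At an unadjusted p of 0.05 the count was 6 of the 28, or 21.4%, where 12.0% of all tested genes passed. With limma-voom 0 passed the adjustment and 6 lay below the unadjusted threshold, where 0.00637% and 11.8% of all tested genes did. No test was made of these shares. The identifiers were recalled and not annotated in the table, and the reference placed 25 of them at the matching position and 2 elsewhere.

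The other precursor steps, which are the rest of the MEP pathway, the IPP isomerases and further DXS and GGPPS loci, had estimates below 0 for 7 of 8 tested loci of 10. Their median log2 change was -0.21, with 2 below the unadjusted threshold, both with negative estimates. One locus, recalled as the GGPPS1 gene (Solyc11g011240), is listed at 0 in every library. The steps after lycopene, which make lutein and the xanthophylls derived from beta-carotene, had 9 tested loci of 11, 3 with positive and 6 with negative estimates. Their median was -0.23, 2 loci, both with lower levels in slgols2, lay below the unadjusted threshold, and 1 locus is listed at 0 in every library. The locus at 0 is 1 of the 2 that the reference places elsewhere, at a gene rank that differed by 8.14% of the chromosome. Its 0 therefore does not show that a step was absent. Lycopene epsilon cyclase (Solyc12g008980, CRTL-E-1 in the reference), which draws lycopene into the lutein branch, had the smallest adjusted p among the steps after lycopene. It stood at 4.31, 4.61 and 4.21 FPKM in slgols2 replicates 1, 2 and 3, against 5.80, 7.69 and 6.64 FPKM in WT, with a log2 change of -0.51 ± 0.15 (SE, limma adjusted p = 0.288). It was named after its values were seen.

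The 3 accessory loci, recalled as an ORANGE-type protein, the plastid terminal oxidase and a fibrillin, had estimates of -0.08 ± 0.17, 0.29 ± 0.38 and 0.61 ± 0.58 (SE), and none passed. The fibrillin locus stood at 289, 155 and 56.4 FPKM in slgols2, against 78.2, 81.4 and 110 FPKM in WT. The oxidase locus had 22.3, 9.25 and 7.57 FPKM in slgols2, against 8.64, 8.87 and 10.7 FPKM in WT. For both, slgols2 replicate 3 lay below every WT library. The ripening loci, 8 of 13 tested, had 4 positive and 4 negative estimates with a median of -0.10. Below the unadjusted threshold lay 1 locus with a lower and 1 with a higher level in slgols2. The lower was ACS2 (Solyc01g095080), at -1.05 ± 0.41 (SE, limma adjusted p = 0.397). The higher, at 0.83 ± 0.32 (SE, limma adjusted p = 0.394), was recalled as E8 (Solyc09g089580), but the reference places E8 on chromosome 3. Both are named after their values were seen. Of the 5 below the minimum level, PG2 and a locus listed at 0 in every library left no room for a difference. The other 3 were lower in every slgols2 library than in any WT library, and these are named after their values were seen. The share of all genes below the minimum level that separated in this way was not computed. NOR (Solyc10g006880), a NAC regulator needed for ripening, stood at 0.0378, 0.0211 and 0.0831 FPKM in slgols2 libraries, from 2, 1 and 4 fragments, against 1.69, 0.984 and 0.522 FPKM in WT libraries, from 87, 50 and 24 fragments. The MADS-box regulator RIN (Solyc05g012020) had 0.0893, 0.160 and 0.0784 FPKM in slgols2, against 0.835, 0.446 and 0.339 FPKM in WT. ACS4 (Solyc05g050010), a gene of ethylene synthesis, averaged 0.126 FPKM in slgols2 and 0.546 FPKM in WT. Without the filter none of the 3 passed (limma adjusted p = 0.225, 0.298 and 0.475 for NOR, RIN and ACS4). Their log2 changes of (FPKM + 1) in that fit were -0.94, -0.46 and -0.43. This scale compresses changes at such low levels, so the missed threshold does not show that levels were equal. Over all tested genes the median was 0.0013, with the 5th percentile at -0.91 and the 95th at 0.60.

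**Figure D5:**
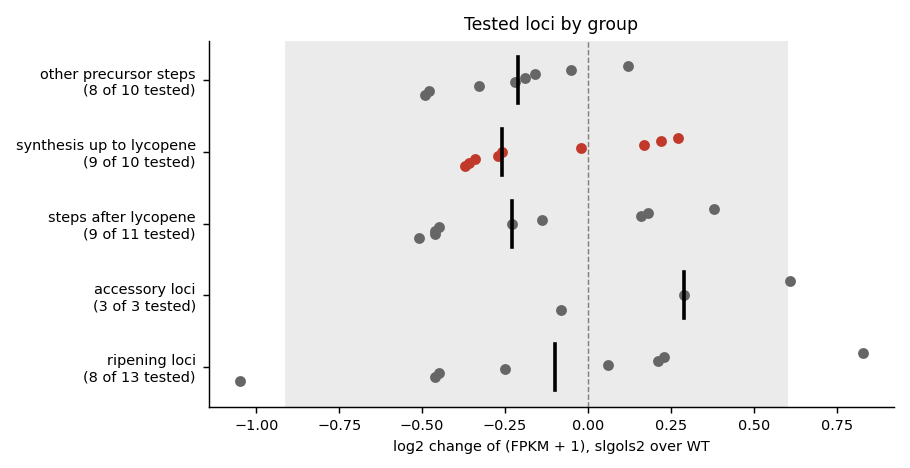
Log2 change of (FPKM + 1), slgols2 over WT (horizontal axis), of tested loci in 5 groups. Each point is a locus, each black bar the group median, and the grey band the range from the 5th to the 95th percentile of all 15695 tested genes. The medians lie at -0.21, -0.26, -0.23, 0.29 and -0.10 from top to bottom.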

How the data were processed

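The authors deposited 1 table of FPKM values, per the file headers, with a column for each of the 3 slgols2 and 3 WT libraries, grouped here by title. The submitters' processing notes list HISAT2 2.1.0 and DESeq 1.38.3. Counter, genome build, annotation and strand setting are not given here, so reads of overlapping genes may not have been told apart, and paralogues may share reads. Members and lists were chosen with earlier results of these data known.

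Genes whose mean FPKM reached 1 were tested on log2(FPKM + 1), slgols2 over WT, with limma 3.58.1 in R 4.3.3 (intensity trend, two-sided, Benjamini-Hochberg at 0.05). This scale understates changes of low genes. Recovered fragments were the smallest numbers whole within 0.02 in all libraries, found for 15695 of 15695 tested genes. Both steps were tested on simulated data, where not every gene came back with its exact read number and small changes were mostly not called. Shares used exact permutation in scipy 1.17.1. Named genes were the 10 members and the 2 gene models nearest to PSY1 in profile, and the few others are marked as chosen after their values were seen or as listed at 0.

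Alternatives covered pseudocount, filter, scaling, trend, robust fitting, sample weights, replicate block, recovered fragments and each library left out. No sequence is shown, because no sequence table was used here.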

Additional observations from a re-analysis of the deposited data

How the results depend on the processing

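Over 16 alternatives, 137 of 143 member estimates kept their sign and their side of the threshold. Over the fits that leave out a library DXS1 ranged from -0.09 (WT replicate 1 left out) to 0.42, and ZDS from -0.21 to 0.08 (slgols2 replicate 2 or 3 or WT replicate 3 left out). ZDS also turned, to 0.01, with quantile normalization. With sample quality weights 1 member passed (GGPPS2, -0.45), as did 5 of the other pathway and ripening loci and 2028 genes in all, and every other alternative gave 0 members and 0 other loci. The cause was not tested. The count of all genes, 36, became 20 at a pseudocount of 0.1, 55 when unfiltered, 15 when filtered at 5 FPKM, 1 with limma-voom on recovered fragments and 9 to 273 over the fits that leave out a library, the extremes being without WT replicate 1 or 2 (9 each) and without slgols2 replicate 3 (273). With the replicate number as a block it was 1. Nothing shows that replicate numbers pair libraries: deviations from group means correlated at -0.15, 0.0888 and -0.165 between same-numbered libraries. The difference in PSY1 share, 7.27 percentage points, kept its sign wherever it was recomputed. At this depth GGPPS2 and PSY3 rest on few fragments.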
